A study of Mus musculus with 201 samples.

Results

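Expression of 10 circadian clock genes was followed in single dentate granule cells (DGCs) of the mouse hippocampus. *Per1*, *Per2*, *Per3*, *Cry1*, *Cry2*, *Arntl*, *Clock*, *Nr1d1*, *Nr1d2* and *Dbp* were chosen by name as the core of the clock, out of 42802 gene symbols in the table of NE nuclei, 42790 in that of whole cells and 42774 in that of HC nuclei. All 10 were present in each of the 3 tables. NE nuclei came from a C57BL/6 mouse placed for a while in an unfamiliar environment (NE) and were sorted by antibody as Prox1+/Fos+ (FOS+) or Prox1+/Fos- (FOS-). HC nuclei came from a C57BL/6 mouse left in its home cage (HC) and were sorted as NeuN+/Prox1+. The C57BL/6 mice were young adult wild-type females. Whole cells came from mice of the Prox1-GFP strain, in which the *Prox1* promoter drives a fluorescent protein, after an injection of PTZ, a GABA(A) receptor antagonist that causes seizures, or of Saline. They were dissociated with protease and sorted as GFP+, whereas nuclei were freed mechanically. The age of the Prox1-GFP mice and the time of day at which tissue was taken are not given in the sources used here, and the mice that are described were kept under a light/dark cycle.

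The clock is a feedback loop of transcription. ARNTL (also called BMAL1) and CLOCK bind together to E-box sequences and activate the *Per* and *Cry* genes, whose proteins return to the nucleus and repress that activity. NR1D1 and NR1D2 (REV-ERB alpha and beta) repress *Arntl* through RORE sequences, and DBP carries the rhythm to output genes through D-box sequences. *Per1* and *Per2* are also known as genes that respond to cAMP and calcium signalling, through CREB bound at cAMP response elements (CREs), so that both a rhythm and a stimulus can move them.

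Sequence upstream of the genes is shown first for the *Per* family, because its 3 members differed in direction between FOS+ and FOS- nuclei. The RefSeq promoter table of build GRCm38.p6 held 13 start sites for 9 of the 10 genes and no entry for *Per2*. The 250 bases before each start were searched on both strands for the E-box CACGTG, the variant E'-box CACGTT, the CRE TGACGTCA and its core TGACG (which lies within the full CRE), the D-box TTATGTAA and the RORE core AGGTCA. Matches are in capitals, and bases inside annotated exons of the gene were searched but not printed. Each run is read 5′ to 3′ on the strand of the gene.
Per1, upstream start, chr11:69098699-69098947, plus strand: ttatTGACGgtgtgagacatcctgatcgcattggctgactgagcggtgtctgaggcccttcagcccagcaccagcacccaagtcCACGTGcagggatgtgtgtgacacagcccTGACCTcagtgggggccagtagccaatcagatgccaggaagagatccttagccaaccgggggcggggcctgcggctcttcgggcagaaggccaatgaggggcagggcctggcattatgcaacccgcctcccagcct
Per1, downstream start, chr11:69099902-69100151, plus strand: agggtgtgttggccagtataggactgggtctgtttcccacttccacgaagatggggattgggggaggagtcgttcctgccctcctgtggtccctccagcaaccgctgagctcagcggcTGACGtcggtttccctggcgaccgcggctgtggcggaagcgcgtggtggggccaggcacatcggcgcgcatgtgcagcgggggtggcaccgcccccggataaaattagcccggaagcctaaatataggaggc
Per3, chr4:151044666-151044915, minus strand: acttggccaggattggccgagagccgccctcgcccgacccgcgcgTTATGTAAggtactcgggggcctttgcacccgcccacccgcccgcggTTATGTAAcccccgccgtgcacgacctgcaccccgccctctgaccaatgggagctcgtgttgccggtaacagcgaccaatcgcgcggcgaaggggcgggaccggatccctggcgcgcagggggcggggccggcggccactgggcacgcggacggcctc

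The capitals of the first *Per1* window mark a CRE core, an E-box and, on the other strand, a RORE core, and those of the second window mark a CRE core. The 2 capital runs in the *Per3* window are D-boxes. Over all 32851 promoters of the table, the same length of upstream sequence held an E-box in 6.02%, an E'-box in 3.85%, a CRE core in 17.8%, a full CRE in 1.55%, a D-box in 0.819% and a RORE core in 14.02%. A window with 2 or more D-boxes was found for 6 promoters. Elsewhere among the clock genes the search found an E-box, an E'-box and a CRE core before *Cry1*, an E'-box and a CRE core before *Cry2*, an E'-box before *Nr1d1*, and a RORE core before *Nr1d2* and before 1 of the *Clock* starts. The CRE core of *Cry1* lies in the last 10 bases of its window, inside an annotated exon of *Cry1*. No letters of the list were found in the windows of *Arntl* and *Dbp*, and none of the 13 windows held the full CRE. These matches describe the sequence and are not evidence of binding.

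After the limits on depth and on genes detected, 40 of 48 FOS+ nuclei, 41 of 48 FOS- nuclei, 30 of 35 PTZ-treated cells and 38 of 47 saline-treated cells were kept, and all 23 HC nuclei were used, 1 of which fell below the limit on genes set for the other tables. Total counts per cell ran from 63775 to 1060520 in NE nuclei, from 107647 to 278779 in HC nuclei and from 67212 to 5129240 in whole cells. Each library is 1 cell, and the labels name no animal. By the series' design text all FOS+ and FOS- nuclei came from 1 mouse, so those groups share time of day. For the whole cells that text speaks of 1 mouse per treatment, whereas the paper states that mice were pooled within each treatment. A group is therefore 1 biological sample and no test was run. A gene was counted as detected in a cell at a TPM (transcript abundance per length, scaled within the cell) above 1. Shares of cells carry 95% exact binomial intervals, and differences in share an interval combined from those of both groups. Pooled CPM (counts of a group scaled to its total, not per length) and their ratios carry exact Poisson intervals. All of these cover counting error only. Since reads carry no molecular identifiers, the Poisson intervals count reads and not molecules, and they leave out the spread between cells, so they are too narrow. The SD describes the spread over cells. A gene was called higher or lower if its share of detecting cells differed by at least 20 percentage points and its pooled CPM at least 2-fold in the same direction.

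*Per1* and *Per2* were higher in FOS+ nuclei and *Per3* was lower, while the other 7 clock genes did not pass the size rule. The background for these counts is that 2.83% of the 16387 genes detected in at least 5 NE nuclei were called higher and 2.53% were called lower. The 10 clock genes were all among the genes counted, and their median difference in share was 6.92 percentage points against -0.854 over all 16387 genes.

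*Per1* (chromosome 11, 69095217 to 69109960 of GRCm38, plus strand) encodes the PERIOD protein most often described as stimulus-responsive. Its TPM in FOS+ nuclei had a lowest value of 0, a median of 1.21 and a highest value of 536, and in FOS- nuclei a lowest value of 0, a median of 0 and a highest value of 163. It was detected in 20 of 40 FOS+ nuclei (50.0%, interval 33.8 to 66.2%) and in 10 of 41 FOS- nuclei (24.4%, interval 12.4 to 40.3%). The nuclei with the most *Per1* were FOS+, with 8 FOS+ and 2 FOS- nuclei above a TPM of 100, but the groups overlapped over most of their range. The difference in share was 25.6 percentage points (interval 2.90 to 45.8). Mean TPM was 47.4 ± 94.5 (SD, n = 40) in FOS+ and 11.9 ± 34.2 (SD, n = 41) in FOS- nuclei, so each SD exceeded its mean. Pooled *Per1* CPM was 3.84-fold higher in FOS+ nuclei (interval 3.45 to 4.27). A single FOS- nucleus held 75.3% of the *Per1* counts of its group, and without the nucleus of highest count in each sort the log2 ratio rose from 1.94 to 3.45.

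*Per2* (chromosome 1, 91415982 to 91459324, minus strand) encodes a PERIOD protein without which mice lose a stable rhythm in constant darkness. Its TPM ran from 0 to 396 with a median of 16.7 in FOS+ nuclei, and from 0 to 287 with a median of 0 in FOS- nuclei. It was detected in 24 of 40 FOS+ nuclei (60%, interval 43.3 to 75.1%) and in 12 of 41 FOS- nuclei (29.3%, interval 16.1 to 45.5%), a difference of 30.7 percentage points (interval 7.44 to 50.8). Most FOS- nuclei thus lacked *Per2* while most FOS+ nuclei held it, with 10 FOS+ nuclei and 2 FOS- nuclei above a TPM of 100. Mean TPM was 66.8 ± 102 (SD, n = 40) and 19.3 ± 53.6 (SD, n = 41). Pooled *Per2* CPM was 277 (interval 268 to 285) in FOS+ and 85.0 (interval 80.2 to 90.0) in FOS- nuclei, 3.25-fold higher (interval 3.05 to 3.47).

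*Per3* (chromosome 4, 151003652 to 151044665, minus strand), a PERIOD gene that the basic rhythm can do without, moved the other way. In FOS- nuclei its TPM ran from 0 to 666 with a median of 204, and in FOS+ nuclei from 0 to 616 with a median of 34.3. It was detected in 38 of 41 FOS- nuclei (92.7%, interval 80.1 to 98.5%) and in 29 of 40 FOS+ nuclei (72.5%, interval 56.1 to 85.4%). The groups covered nearly the same range, but the FOS- nuclei were crowded towards the top of it: 28 FOS- and 11 FOS+ nuclei were above a TPM of 100. Mean TPM was 243 ± 204 (SD, n = 41) in FOS- and 92.6 ± 143 (SD, n = 40) in FOS+ nuclei, and pooled CPM was 3.39-fold lower in FOS+ nuclei (interval 3.24 to 3.54). The difference in share of *Per3*, -20.2 percentage points (interval -37.6 to -2.15), lay just past the limit of the rule. It fell short at -15.2 points with detection at 1 count, at -12.3 points without nuclei rich in markers of other cell types and at -15.3 points among nuclei with *Prox1* detected. Its log2 ratio of level, which no limit on detection enters, lay between -1.99 and -1.39 in 8 alternatives. *Camta1*, a transcription factor gene that overlaps *Per3* on the same strand without sharing exon bases, was also lower in FOS+ nuclei, detected in 23 of 40 against 35 of 41.

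**Figure D1:**
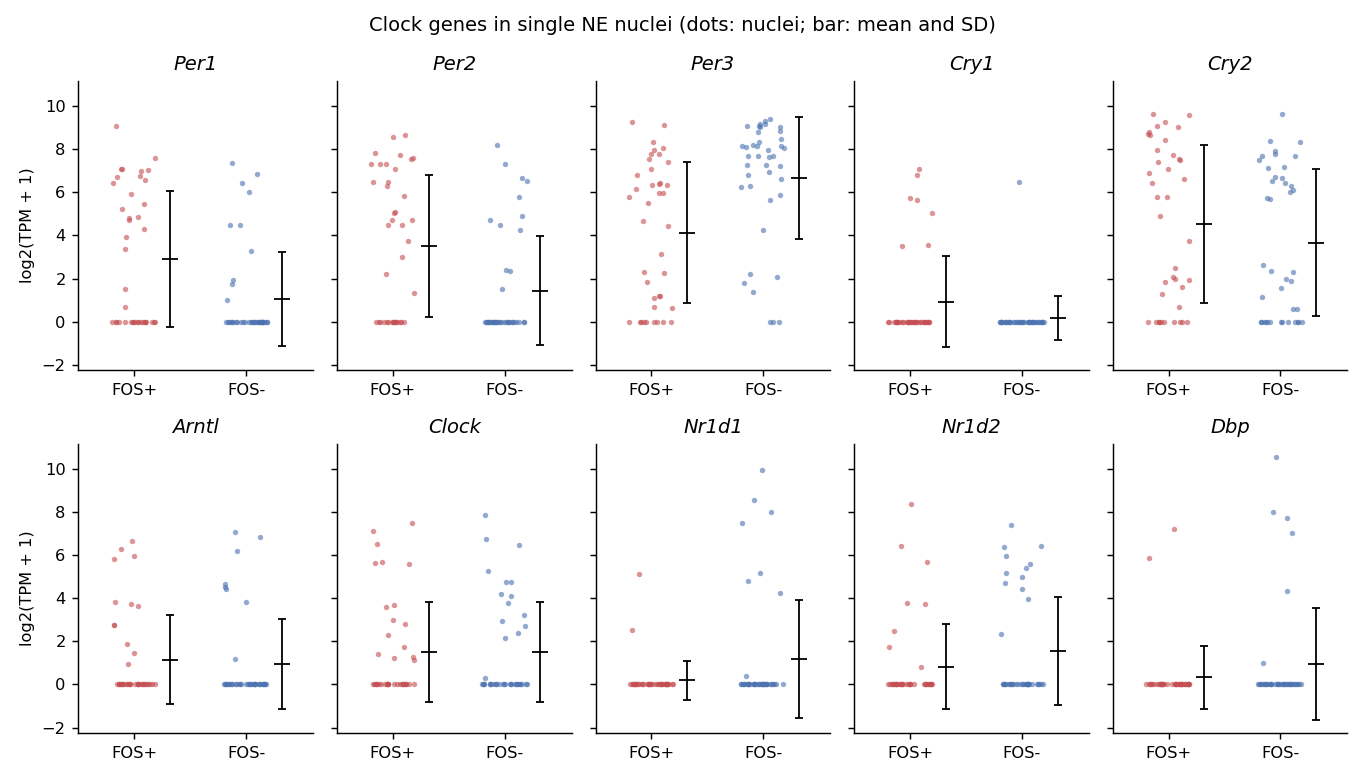
Level of each clock gene as log2(TPM + 1) (y axis) in 40 FOS+ nuclei (red) and 41 FOS- nuclei (blue), with 1 dot per nucleus and, in black, the mean and SD over nuclei. *Per1* and *Per2* dots above 0 are more frequent on the FOS+ side, *Per3* is detected in 92.7% of FOS- and 72.5% of FOS+ nuclei, and nuclei at 0 and nuclei with high values occur together in each panel.

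The *Cry* genes encode the cryptochromes, partners of PERIOD proteins in repression. *Cry1* (chromosome 10, 85131700 to 85185064, minus strand) was detected in 7 of 40 FOS+ nuclei and in 1 of 41 FOS- nuclei, a difference of 15.1 percentage points (interval 0.509 to 30.5) that did not reach the limit of 20. Its TPM was at most 133 in FOS+ nuclei and was 87.97 in the single FOS- nucleus, which held all *Cry1* counts of its group. *Cry2* (chromosome 2, 92403646 to 92434043, minus strand) was the clock gene at the highest mean TPM in FOS+ nuclei. It was detected in 29 of 40 FOS+ nuclei (72.5%) and in 26 of 41 FOS- nuclei (63.4%), with medians of 41.1 and 4.08 TPM and highest values of 798 and 787 TPM. Its pooled CPM was 2.37-fold higher in FOS+ nuclei (interval 2.24 to 2.51) but its share differed by 9.09 percentage points (interval -12.8 to 30.01), so it was not called. An antisense transcript, *D930015M05Rik*, shares 295 exon bases with *Cry2*; the libraries do not mark strand, so reads there cannot be told apart, and *D930015M05Rik* was detected in 4 FOS+ and 2 FOS- nuclei.

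Neither gene of the activating arm passed the size rule. *Arntl* (chromosome 7, 113207465 to 113314126, plus strand) was detected in 11 of 40 FOS+ nuclei and in 8 of 41 FOS- nuclei, a difference of 7.99 percentage points (interval -12.1 to 27.6). *Clock* (chromosome 5, 76209868 to 76304792, minus strand) was detected in 16 and 14 nuclei, a difference of 5.85 percentage points (interval -16.5 to 27.7). Mean *Arntl* TPM was 8.66 ± 22.7 (SD, n = 40) in FOS+ and 9.73 ± 28.99 (SD, n = 41) in FOS- nuclei, and mean *Clock* TPM was 14.9 ± 37.9 and 14.2 ± 40.7. Both intervals reach beyond 20 percentage points towards FOS+ nuclei.

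The repressors of the second loop and the output gene were more often detected in FOS- nuclei, none of them by 20 percentage points. The differences in share were -12.1 percentage points for *Nr1d1* (interval -27.7 to 3.44) and -11.8 for *Nr1d2* (interval -31.0 to 8.38). For *Dbp* the difference was -7.20 points (interval -21.9 to 7.22). Each of these intervals includes 0, so counting error alone leaves the direction of each gene open. *Nr1d1* (chromosome 11, 98767932 to 98775333, minus strand) was detected in 2 of 40 FOS+ and 7 of 41 FOS- nuclei, with highest values of 34.1 and 994 TPM. Its pooled CPM was 0.968 (interval 0.529 to 1.63) in FOS+ and 66.3 (interval 62.1 to 70.7) in FOS- nuclei, but a single FOS- nucleus held 51.4% of the counts. *Nr1d1* shares 263 exon bases with *Thra*, the thyroid hormone receptor gene on the opposite strand, which was itself lower in FOS+ nuclei, detected in 20 of 40 against 31 of 41; the part of *Thra* reads in the *Nr1d1* values was not tested. *Nr1d2* (chromosome 14, 18204054 to 18239127, minus strand) was detected in 7 FOS+ and 12 FOS- nuclei, with pooled CPM 2.25-fold lower in FOS+ nuclei (interval 1.91 to 2.66). *Dbp* (chromosome 7, 45705088 to 45710203, plus strand) was detected in 2 FOS+ and 5 FOS- nuclei, and reached 1493 TPM in 1 FOS- nucleus against at most 144 TPM in FOS+ nuclei. *Dbp* shares 539 of its 2993 exon bases with *Sphk2* on the opposite strand, detected in 1 FOS+ and 6 FOS- nuclei.

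NE nuclei had been amplified under 4 conditions, a template-switch oligonucleotide (TSO) at 1 or 10 uM and spike-in RNA (ERCC) diluted 200-fold or 2000-fold, with 8 to 11 kept nuclei of each sort per condition. The share of detecting nuclei was higher in FOS+ for *Per1* in all 4 conditions, by 4.55 to 40 percentage points, and for *Per2* in 3 of 4. *Per2* was detected in 5 of 11 FOS+ and 5 of 10 FOS- nuclei at 10 uM TSO and 200-fold ERCC, where its pooled CPM was still higher in FOS+ nuclei, at 155 against 53.4. *Per1* CPM was higher in FOS+ nuclei in 3 of 4 conditions and was 34.9 against 51.0 at 1 uM and 2000-fold. For *Per3* the share was lower in FOS+ nuclei in 3 conditions and equal in the other, at 7 of 10 nuclei each, and its CPM was lower in all 4. The gap in share was widest at 1 uM and 2000-fold, with 3 of 8 FOS+ and 10 of 10 FOS- nuclei. *Nr1d2* had the lower share in FOS+ nuclei in all 4 conditions, and *Nr1d1* and *Dbp* in 3 each. All of these rest on few nuclei. At 200-fold ERCC, *Nr1d2* was found in 0 of 10 FOS+ and 1 of 10 FOS- nuclei (1 uM), and in 4 of 11 and 5 of 10 (10 uM). At 2000-fold it was found in 1 of 8 and 2 of 10 (1 uM), and in 2 of 11 and 4 of 11 (10 uM). *Dbp* was found in at most 2 nuclei of a sort in any condition. At 10 uM and 200-fold *Nr1d1* was found in 1 of 11 FOS+ and 1 of 10 FOS- nuclei. Its widest gap was 0 of 11 against 4 of 11, at 10 uM and 2000-fold.

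**Figure D2:**
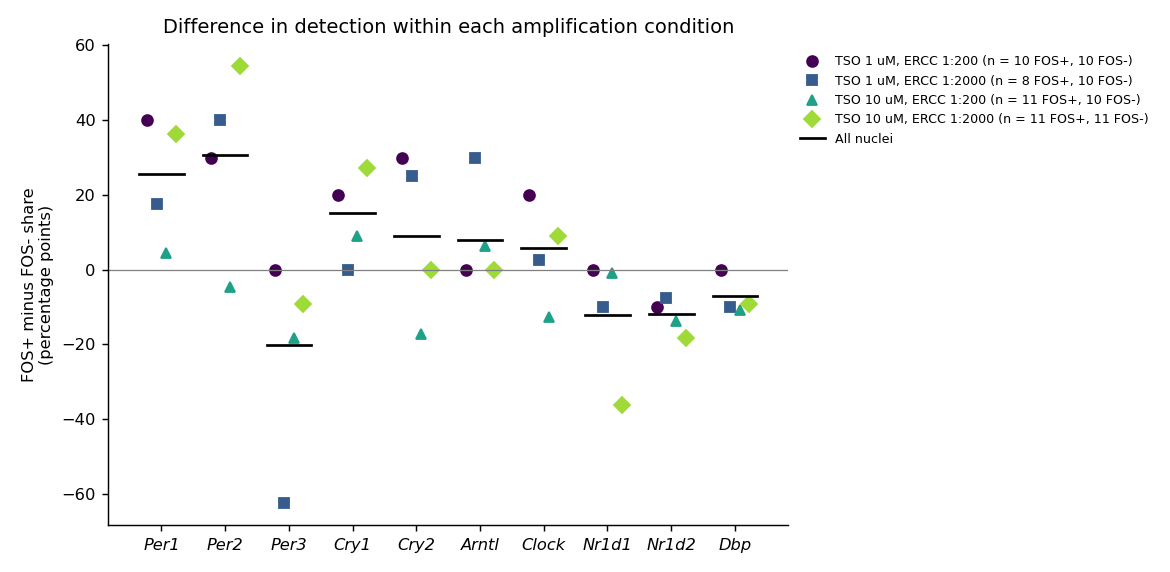
Difference in the share of detecting nuclei, FOS+ minus FOS-, in percentage points (y axis) for the 10 clock genes, with 1 symbol for each of the 4 amplification conditions and a black line for all nuclei. The 4 *Per1* symbols lie between 4.55 and 40, and the *Per3* symbols lie at or below 0.

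The median total count was 269061 in FOS+ and 214421 in FOS- nuclei. With every nucleus thinned to 50000 reads and detection at 1 read, *Per1* was found in 20 of 40 FOS+ and 8 of 41 FOS- nuclei, *Per2* in 23 and 9, and *Per3* in 24 and 37. Without thinning, detection at 1 count gave 21 and 10 nuclei for *Per1*, 24 and 12 for *Per2*, and 31 and 38 for *Per3*.

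Within the FOS+ nuclei the *Per* genes were not found in the same nuclei throughout. Both *Per1* and *Per2* were detected in 14 FOS+ nuclei, *Per1* without *Per2* in 6, *Per2* without *Per1* in 10, and neither in 10. *Arc*, whose protein acts in synaptic plasticity and whose transcription follows neuronal activity, was detected in 31 of 40 FOS+ nuclei. Of those 31, 18 held *Per1*, 22 held *Per2* and 22 held *Per3*, and of the 9 FOS+ nuclei without *Arc*, 2 held *Per1*, 2 held *Per2* and 7 held *Per3*. Across all 81 NE nuclei, Spearman's correlation of log2(TPM + 1) was 0.33 between *Per1* and *Per2*, 0.42 between *Per1* and *Arc*, 0.43 between *Per2* and *Arc*, and -0.46 between *Per3* and *Arc*. These values describe nuclei of 1 mouse, and those over all 81 nuclei also hold the difference between the sorts. Within the 40 FOS+ nuclei the same pairs with *Arc* gave 0.43, 0.31 and -0.32. With the activity genes *Fos*, *Egr1*, *Nr4a1* and *Npas4*, *Per3* gave -0.35, 0.05, -0.20 and 0.01 in these nuclei. In the same order *Per2* gave 0.15, 0.20, 0.13 and 0.54, and *Per1* gave 0.42, 0.37, 0.53 and 0.36. Across the 68 whole cells *Per3* gave 0.33 with *Arc*, and 0.29, 0.15, 0.20 and 0.39 with the others in that order. Over the 45 pairs of clock genes, the correlation ran from -0.19 to 0.33 with a median of 0.04 in NE nuclei.

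The genes most like *Per1* across the 81 NE nuclei, of 9351 detected in at least 20 nuclei, were *Cltc* (clathrin heavy chain, Spearman's correlation 0.56), *Slc2a1* (a glucose transporter, 0.53), *Homer1* (a postsynaptic scaffold, 0.53), *Smap2* (0.52) and *Ptgs2* (cyclooxygenase 2, 0.51). Across the 68 whole cells they were *Foxn3* (a forkhead factor, Spearman's correlation 0.48), *Hist3h2ba* (a histone gene, 0.48), *Fosb* (a partner of JUN, 0.48), *Arl4d* (0.47) and *Arhgdia* (0.47).

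**Figure D3:**
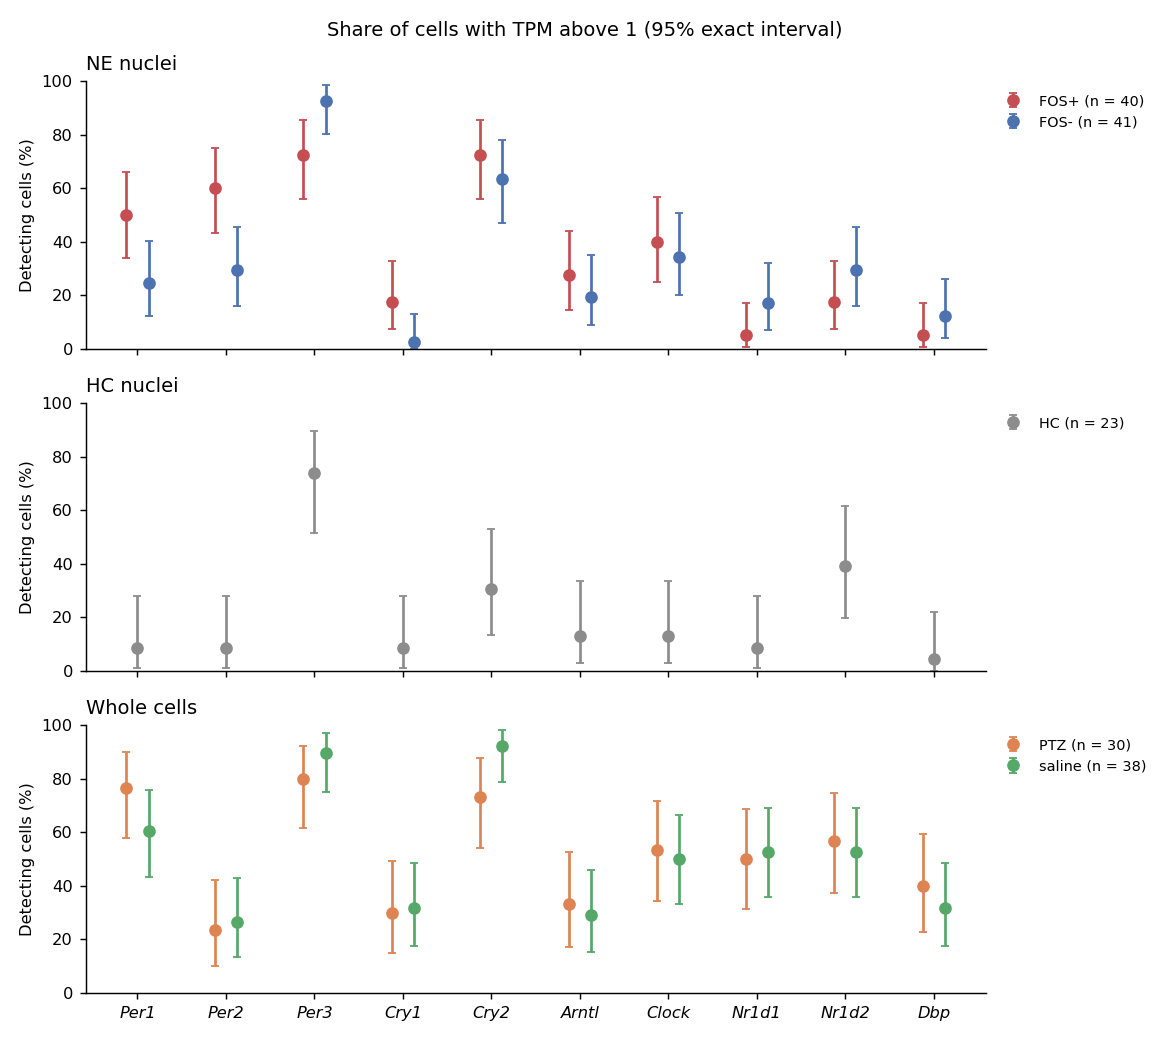
Share of cells with a TPM above 1 (y axis, percent, with 95% exact intervals) for each clock gene in NE nuclei (upper panel), HC nuclei (middle panel) and whole cells (lower panel), which stem from separate tables. The *Per1* and *Per2* points lie 25.6 and 30.7 percentage points higher in FOS+ than in FOS- nuclei, and the widest gap between the treatments of whole cells is 18.8 points, for *Cry2*.

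In HC nuclei most clock genes were rarely detected. *Per1*, *Per2*, *Cry1* and *Nr1d1* were each found in 2 of 23 nuclei (8.70%, interval 1.07 to 28.04%), *Arntl* and *Clock* in 3, *Cry2* in 7 and *Dbp* in 1. *Per3* was detected in 17 of 23 nuclei (73.9%, interval 51.6 to 89.8%), with a median of 16.1 TPM and a highest value of 812 TPM. *Nr1d2* had the highest mean TPM of the clock genes there, 166 ± 246 (SD, n = 23), and its nuclei fell apart into 14 without detection and 9 with it, of which 8 were above a TPM of 100. In the NE table *Nr1d2* mean TPM was 12.4 ± 53.6 in FOS+ and 14.9 ± 32.99 in FOS- nuclei. HC nuclei were captured on another platform, had fewer genes per nucleus (median 3213, against 6326 in FOS+ and 6020 in FOS-) and came from another mouse, so platform, animal, time of day and housing cannot be told apart, and no comparison was made. The HC nucleus below the limit on genes held 558 TPM of *Cry2* and 445 TPM of *Nr1d2*. Among the other 22, *Cry2* was found in 6 with a mean of 7.65 ± 16.4 TPM (SD, n = 22) in place of 31.6 ± 116 (SD, n = 23), and *Nr1d2* in 8 with a mean of 153 ± 244 TPM (SD, n = 22). *Per3* was found in 16 of the 22.

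All cells but 2 FOS- nuclei and 2 HC nuclei held at least 1 clock gene. Of the 10 genes, FOS+ nuclei held 3.68 ± 1.59 (SD, n = 40), FOS- nuclei 3.24 ± 1.67 (SD, n = 41), HC nuclei 2.09 ± 0.949 (SD, n = 23), PTZ-treated cells 5.17 ± 2.44 (SD, n = 30) and saline-treated cells 5.16 ± 1.82 (SD, n = 38). By mean TPM, which is per length, the order in FOS+ nuclei was *Cry2*, *Per3*, *Per2* and *Per1*, and in FOS- nuclei *Per3*, *Cry2*, *Dbp* and *Nr1d1*, the last 2 of them carried by a few nuclei. In both treatments of whole cells the order opened with *Cry2*, *Per1*, *Per3* and *Nr1d1*. Neighbours in these orders differed by less than the larger of their SDs.

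In whole cells, PTZ treatment was accompanied by no called change in any clock gene. None of the 10 was called higher, against 2.04% of the 13748 genes counted, and none was called lower, against 1.46%. A count of 0 of 10 is close to both shares. *Fos* mRNA was detected in 26 of 30 cells after PTZ and in 30 of 38 after saline, with pooled CPM of 2997 and 2677. The paper reports that whole cells dissociated with papain expressed such genes whether or not PTZ was given. What this means for the clock genes under PTZ was not tested. *Per1* was found in 23 of 30 cells after PTZ (76.7%, interval 57.7 to 90.1%) and in 23 of 38 after saline (60.5%, interval 43.4 to 76.0%), a difference of 16.1 percentage points (interval -8.30 to 37.9). Its TPM ran from 0 to 212 with a median of 44.5 under PTZ and from 0 to 613 with a median of 27.8 under saline, and the treatments overlapped throughout. Mean *Per1* TPM was 54.7 ± 53.0 (SD, n = 30) and 61.5 ± 105 (SD, n = 38), the latter with 1 cell at 613 TPM. Pooled *Per1* CPM was 127 after PTZ and 90.9 after saline, 1.40-fold higher (interval 1.34 to 1.46), whereas the log2 ratio of mean TPM was -0.17. *Per2* was found in 7 cells after PTZ and 10 after saline, and *Per3* in 24 and 34, with *Per3* medians of 40.9 and 35.1 TPM. The pooled *Per3* CPM of the treatments differed by a factor of 0.946 (PTZ over saline, interval 0.909 to 0.985). The detected shares of *Per1* in cells of either treatment stand beside 50.0% in FOS+ and 24.4% in FOS- nuclei, in tables made separately.

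Among the remaining genes of whole cells the widest gap was that of *Cry2*. It was found in 22 of 30 cells after PTZ (73.3%, interval 54.1 to 87.7%) and in 35 of 38 after saline (92.1%, interval 78.6 to 98.3%), with medians of 71.0 and 161 TPM and highest values of 220 and 656 TPM. The difference in share, -18.8 percentage points (interval -39.0 to 0.945), and the pooled CPM, 1.68-fold lower under PTZ (interval 1.63 to 1.73), both stayed short of the limits. *Cry1* was detected in 9 and 12 cells, with pooled CPM 2.79-fold lower under PTZ (interval 2.52 to 3.10) and shares of 30% and 31.6%. With each cell thinned to 50000 reads *Cry1* was found in 1 cell after PTZ and in 11 after saline, which would pass the rule. *Arntl* (10 and 11 cells), *Clock* (16 and 19), *Nr1d1* (15 and 20), *Nr1d2* (17 and 20) and *Dbp* (12 and 12) differed in share by at most 8.42 percentage points. The library names carry 1 mark for all PTZ-treated cells and another, with the letters frz, for all saline-treated cells. Its meaning is not given in the sources used here, and what it marks and the treatment cannot be told apart.

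**Figure D4:**
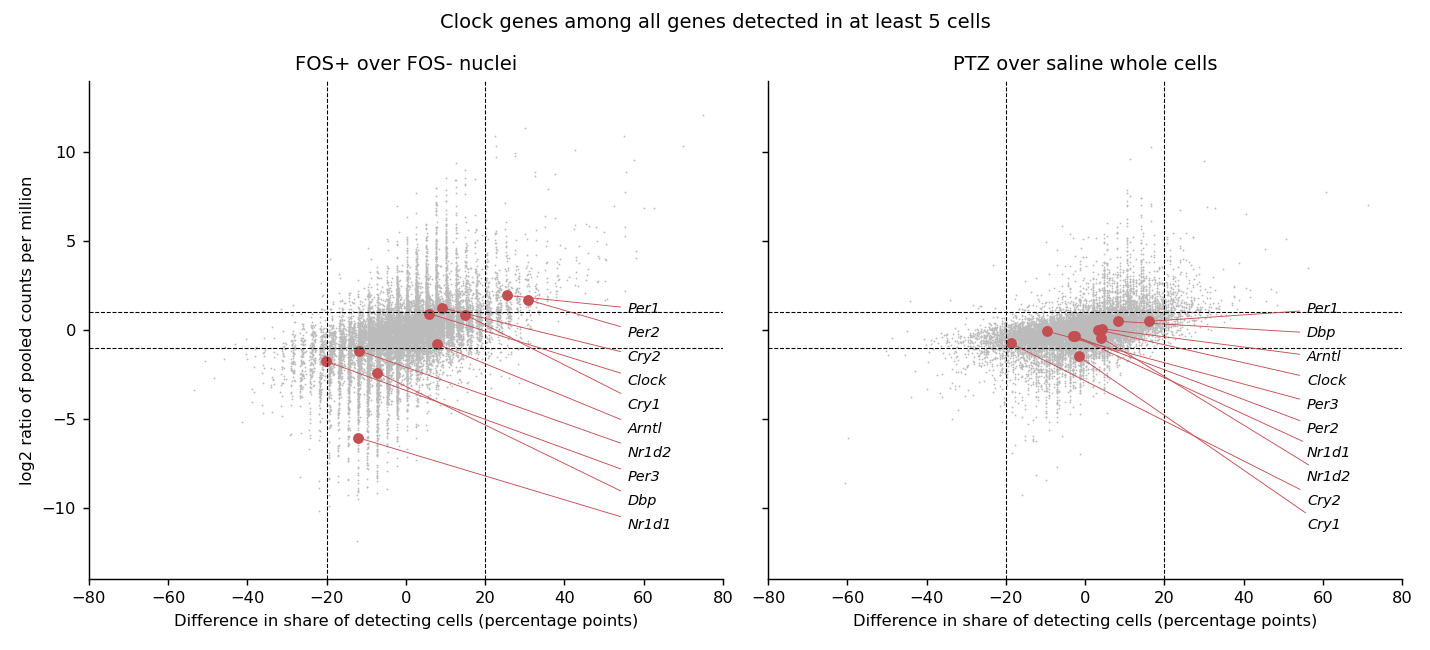
Difference in share of detecting cells (x axis, percentage points) against the log2 ratio of pooled CPM (y axis) for genes detected in at least 5 cells (grey; those with counts in both groups) and for the clock genes (red, labelled), FOS+ over FOS- on the left and PTZ over saline on the right. Dashed lines mark 20 percentage points and 2-fold: *Per1* and *Per2* lie past both on the upper right, *Per3* on the lower left, and no clock gene does on the right panel.

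A list of 22 further genes of the clock was examined in the same way. In NE nuclei 20 of them were detected in at least 5 nuclei, 2 were called higher in FOS+ (2.83% of all genes counted were), 2 were called lower (2.53% of all genes), and the median difference in share was 0.671 percentage points against -0.854 over all genes. The 2 called lower, *Tef* and *Hlf*, encode the relatives of DBP in the PAR bZIP family, which bind the D-box. *Tef* was detected in 17 of 40 FOS+ and 34 of 41 FOS- nuclei, with medians of 0 and 59.8 TPM and pooled CPM of 162 and 407. *Hlf* was detected in 8 FOS+ and 23 FOS- nuclei, with medians of 0 and 5.46 TPM and pooled CPM of 26.1 and 203. *Nfil3*, which encodes a repressor that binds the D-box as well, was called higher, detected in 13 FOS+ and 3 FOS- nuclei with pooled CPM of 101 and 4.87, the latter almost all from 1 nucleus (95.6% of its counts). *Usp2*, which encodes a deubiquitinase with a rhythm in many tissues, was also called higher, in 30 FOS+ and 20 FOS- nuclei with pooled CPM of 270.4 and 91.6. In whole cells 19 of the 22 were detected in at least 5 cells and none was called in either direction, against 2.04% of all genes called higher and 1.46% called lower. *Usp2* (-20.7 percentage points), *Sirt1* (-28.9) and *Bhlhe41* (-34.9) passed the limit on share towards saline. Their pooled CPM was 1.99-fold, 1.99-fold and 1.16-fold lower under PTZ, short of 2-fold. The widest gap towards PTZ was 16.1 points, for *Rora*. *Tef* was detected there in 26 of 30 cells after PTZ and 32 of 38 after saline, and *Hlf* in 14 and 18. In HC nuclei *Tef* was detected in 11 of 23, *Hlf* in 5 and *Nfil3* in 0. The exact interval for 0 of 23 nuclei reaches up to a share of 14.8%.

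**Figure D5:**
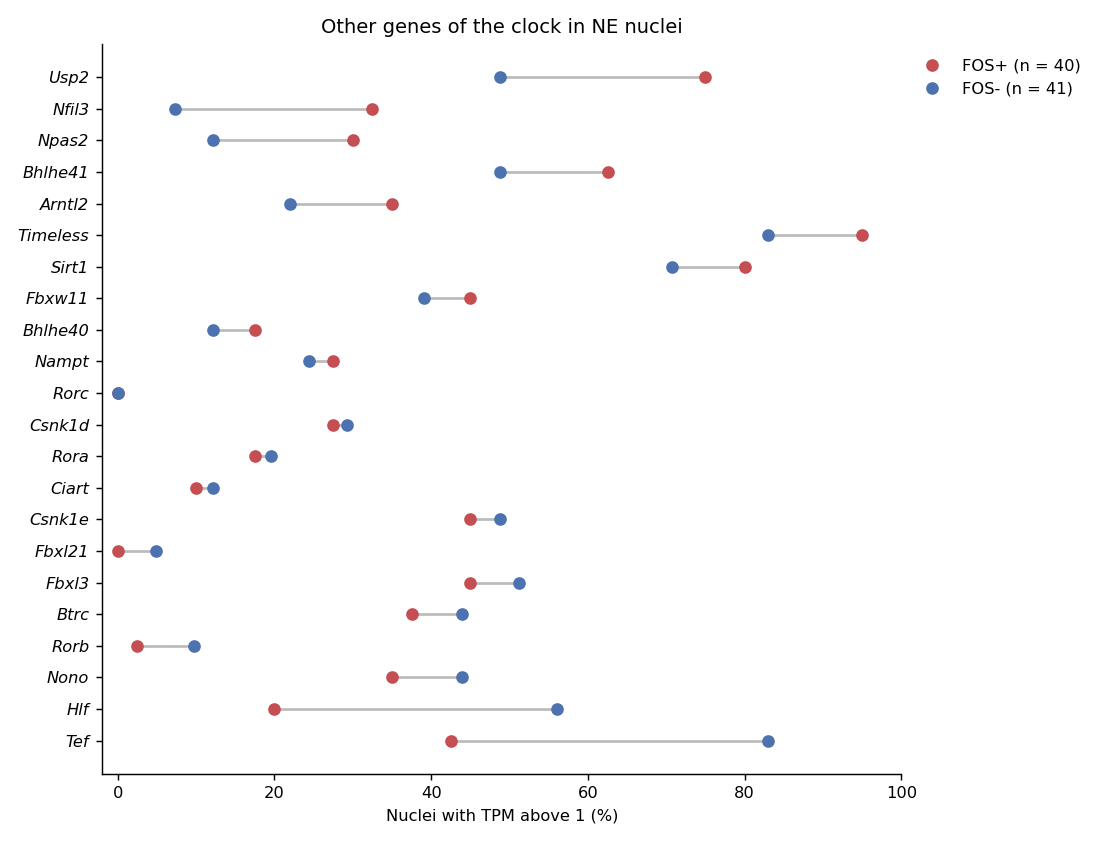
Share of NE nuclei with a TPM above 1 (x axis, percent) for 22 further clock genes (y axis), in FOS+ nuclei (red, n = 40) and FOS- nuclei (blue, n = 41). *Usp2* and *Nfil3* have the widest gaps towards FOS+, and *Tef* and *Hlf* the widest towards FOS-.

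Of 22 listed genes known to follow neuronal activity 21 were detected in at least 5 NE nuclei, of which 16 were called higher in FOS+ nuclei and 0 were called lower, beside 2.83% and 2.53% of all genes. Their median difference in share was 30.1 percentage points, against -0.854 over all genes. The list was chosen with earlier results of these data known. It holds genes that the paper reports as higher in these FOS+ nuclei, such as *Arc* and *Homer1*. Its counts and median gap are therefore no independent scale. Among those called, the widest gaps were those of *Arc* (31 FOS+ and 1 FOS- nuclei), *Pim1* (29 and 1), *Nr4a2* (31 and 9), *Nr4a3* (26 and 4), *Ptgs2* (24 and 2), *Bdnf* (35 and 16), *Fosb* (19 and 2) and *Homer1* (37 and 22). The list's median gap stands beside 25.6 percentage points for *Per1* and 30.7 for *Per2*, which were found in 10 and 12 FOS- nuclei. *Fos* mRNA itself was detected in 12 of 40 FOS+ and 3 of 41 FOS- nuclei, which had been sorted on the protein. In whole cells 1 of 21, *Dusp1*, was called higher under PTZ (16 of 30 against 12 of 38 cells) and 1, *Homer1*, was called lower (8 against 20 cells). Beside 2.04% of all genes called higher and 1.46% lower, 1 of 21 is close to both shares. The difference in share was 21.8 percentage points for *Dusp1* (interval -3.80 to 44.9) and -26.0 for *Homer1* (interval -47.8 to -0.427).

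The labelled cell type was checked by its markers. *Prox1* was detected in 33 of 40 FOS+, 34 of 41 FOS- and 14 of 23 HC nuclei and in all whole cells, and *Calb1* in every NE nucleus. Of the other listed granule cell and neuron markers, *Snap25* was detected in 38 FOS+ and 36 FOS- nuclei, *Syt1* in 40 and 38, and *Rbfox3* in 30 and 31. *C1ql2* was detected in 18 and 25 nuclei and *Dsp* in 11 and 9. Pooled *C1ql2* CPM was 90.7 in FOS+ and 248 in FOS- nuclei, with a difference in share of -16.0 percentage points, short of the rule. Markers of other cell types were present in both sorts, and none of them was called in NE nuclei. Only 4 interneuron, 4 oligodendrocyte, 2 astrocyte, 3 microglia and 1 endothelial markers were detected in at least 5 nuclei. Beside 2.83% of all genes called higher and 2.53% lower, 0 calls among so few genes is close to those shares. *Mag*, an oligodendrocyte marker, passed the limit on share (23 of 40 FOS+ and 14 of 41 FOS- nuclei). Its pooled CPM of 7.30 and 4.91 stayed short of 2-fold. Of 6 interneuron markers, 4 were detected in FOS+ nuclei (*Slc32a1* and *Pvalb* at 0) and 5 in FOS- nuclei (*Pvalb* at 0), with summed TPM from 0 to 1360 (median 26.3) and from 0 to 5822 (median 1.22). *Gad1* was detected in 19 FOS+ and 15 FOS- nuclei. Summed TPM reached 945 in FOS+ and 350.5 in FOS- nuclei for oligodendrocyte markers (5 of 6 detected in each sort, with *Mog* and *Cldn11* at 0 in turn), and 1810 and 2437 for astrocyte markers (5 and 4 of 6, *Aldh1l1* at 0 in both and *Gjb6* in FOS-). For microglia markers it reached 4304 and 51.8 (4 and 3 of 6, *C1qa* and *Tmem119* at 0 in both and *C1qb* in FOS-), and for endothelial markers 110 and 13.8 (3 and 1 of 5, *Cldn5* and *Ly6c1* at 0 in both, *Flt1* and *Slco1a4* in FOS-). In 5 FOS+ and 2 FOS- nuclei the markers of another type summed to over 1000 TPM. Without these, *Per1* and *Per2* were still called higher, by 28.6 and 32.1 percentage points, while *Per3* differed by -12.3 points and a log2 ratio of level of -1.73 and was no longer called. Among nuclei with *Prox1* detected, 33 FOS+ and 34 FOS-, the differences were 22.01, 34.3 and -15.3 percentage points in that order, with a *Per3* log2 ratio of -1.99. In whole cells the astrocyte marker *Aldoc* was called higher after PTZ (10 of 30 against 3 of 38 cells), and the 1 cell with over 1000 TPM of another type's markers was PTZ-treated. Without it no clock gene was called in either direction.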

How the data were processed

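RNA of 201 single cells and nuclei was amplified by Smart-seq2 (HC nuclei on the Fluidigm C1). Reads were trimmed by the authors and assigned to genes with RSEM (Bowtie 1.0.0 in the submitters' processing notes) on mm10 with the Ensembl annotation. The authors deposited for each of 3 tables an expected count, RSEM's estimate of reads per gene without normalization, and a TPM, the same estimate scaled within the cell by the authors. RSEM divides reads between overlapping or near-identical genes, and the libraries do not mark strand.

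Cells were assigned to 5 groups by treatment and sort labels and kept at a total count above 50000 and a number of genes (TPM above 1) above the table's mean minus 2 SD, except that all 23 HC nuclei were kept, 1 of them below the limit on genes. The nuclei that the study set apart among FOS+ nuclei are not named in the labels and were kept. For each group the share of cells with a TPM above 1, the TPM and the pooled CPM from expected counts were computed (Python 3.11.15, pandas 2.3.3, numpy 2.4.6, SciPy 1.17.1). The size rule and its background (genes detected in at least 5 cells of the compared groups) stand in for a test, because the labels name no animals, mice were pooled within the PTZ and saline treatments, and NE and HC nuclei came from 1 mouse each by the series' design text. The rule was checked on simulated data. TMM factors for an alternative came from edgeR 4.0.16. Correlations used log2(TPM + 1). A count of 3 is between 2.83e-04% and 0.00470% of the total in NE nuclei, between 0.00108% and 0.00279% in HC nuclei and between 5.85e-05% and 0.00446% in whole cells. The 3 tables were made separately and are set side by side only.

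The clock genes, the gene lists and the tests were chosen with earlier results of these data known. Named were all 10 clock genes; of the further clock genes and the activity genes, those past the size rule, at most the 8 with the widest gap in share per list and comparison; up to 2 markers per cell type by mean TPM, beside the genes that define the sorts, genes at 0 and genes that share exons with a clock gene; and the 5 genes most like *Per1* in NE nuclei and in whole cells. The granule cell and neuron markers were all named. Genes of these lists were also named where a correlation with a *Per* gene, or a gap short of the rule, is given. Gene positions are those of GENCODE on GRCm38, and upstream sequences are from RefSeq.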

Additional observations from a re-analysis of the deposited data

How the results depend on the processing

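The count of clock genes called higher in FOS+ nuclei was 2, *Per1* and *Per2*, in all alternatives but one: at 10 percentage points and 1.5-fold it was 3, with *Cry1* added. The count called lower was 1, *Per3*. It was 0 with detection at a count of 1 without thinning, 0 without the cells above 1000 TPM of another cell type's markers and 0 among cells with *Prox1* detected, and 3 at 10 percentage points and 1.5-fold, where *Nr1d1* and *Nr1d2* joined *Per3*. In whole cells the count called lower under PTZ was 1 when thinned to 50000 reads (*Cry1*) and 1 at 10 percentage points and 1.5-fold (*Cry2*), and no alternative gave a clock gene called higher. The share of all genes that pass 10 percentage points and 1.5-fold was not computed. *Cry1*, *Nr1d1*, *Nr1d2* and *Cry2*, added at that setting, therefore have no background and cannot be read as results particular to the clock. Leaving out the HC nucleus below the limit on genes kept the share of each of the 10 genes inside its interval. The alternatives on markers, on *Prox1* and on that nucleus were chosen after seeing the data. In NE nuclei the sign of the difference in share and of the log2 ratio of level was the same in each alternative for *Per1*, *Per2* and *Per3*. In whole cells, where none of them was called, the log2 ratio of *Per1* was 0.48 and turned to -0.17 with mean TPM, and the difference in share of *Per2*, -2.98 points, turned to 0.351 with detection at a count of 5. Differences in share stayed inside their counting interval in 80 of 80 alternative values in NE nuclei and in 79 of 80 in whole cells, whereas log2 ratios of level left theirs in 44 of 79 and 41 of 80. The intervals of share are wide, as for *Per1* in NE nuclei (2.90 to 45.8 percentage points). The alternatives also reuse most of the same cells, so staying inside is a weak check. Levels rest on few nuclei: without the nucleus of highest count in each sort, the log2 ratio of *Per1* was 3.45 against 1.94. No paired analysis was possible because the labels number no replicates and a group is 1 sample, so that no model was fitted; the sorts were compared within each of the 4 amplification conditions instead. Each sort and each treatment is 1 sample, so how far the FOS+ and FOS- difference varies between mice is not known, and for PTZ and saline the treatment and its pool of mice cannot be told apart.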
